A study of Mus musculus with 28 samples.

Results

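The 203 genes described here are the expressed neighbours of *Hdc* on mouse chromosome 2. They are all genes of the count files whose GRCm38 position overlaps the stretch from 10 Mb before to 10 Mb after *Hdc* (chr2:116593667-136619299) and which passed 1 CPM (counts per 1e+06 counts on genes) in at least 2 of the 28 libraries. *Hdc* itself and 4 other genes of the stretch, *Pdyn*, *Oxt*, *Avp* and *Mal*, were left out by name. Of 322 genes that the files list in the stretch, 208 passed the filter and 114 did not. The 203 were tested among 14979 genes in all. They include 110 genes on the side of *Hdc* toward the start of the chromosome, here called the start side, and 93 on the end side. Of them, 197 are protein-coding genes, and the rest are 3 lincRNAs, 2 snoRNAs and 1 processed transcript.

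*Hdc* encodes histidine decarboxylase, the enzyme that makes histamine, and in the brain it marks the histamine neurons of the hypothalamus. Genes that lie close together on a chromosome are usually inherited together, because recombination between them is rare. When a targeted allele is crossed onto another strain, neighbouring DNA of the strain in which the allele was made can travel with it for many generations, so that animals with and without the allele may also differ in the genes around it. Which strain the chromosome 2 segment of each library came from was not tested, and counts per gene cannot show it.

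RNA came from adult male mice, 2 to 3 months old, of 3 genotypes: WT, *Hdc* heterozygous (het, 1 knockout allele) and *Hdc* knockout (KO, 2 knockout alleles). The line was backcrossed onto C57Bl/6 over many generations. Whether the WT animals were littermates of the others is not given in the sources used here. From dorsal striatum came 2 WT, 3 het and 2 KO libraries, from motor cortex 1 WT, 2 het and 2 KO. Ventral striatum gave 3 WT, 3 het and 2 KO libraries, as did hypothalamus. The WT motor cortex thus has no replicate, and its spread is assumed to be that of the other groups. The digit in a library name runs from 1 to 8 and belongs to a single genotype. The labels do not say that it marks an animal, so p-values may in part measure technical spread. In bulk tissue, fewer cells of a type and less RNA per cell cannot be told apart.

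The libraries held between 3536802 and 5150280 counts on genes. *Hdc* was read first. Outside the hypothalamus, its counts were between 0 and 6 in the 6 WT libraries, between 17 and 33 in the 8 het libraries and between 29 and 51 in the 6 KO libraries. In the hypothalamus, it had between 79 and 111 counts in WT, between 78 and 117 in het and between 54 and 66 in KO libraries. The counts cover the whole gene and not the deleted part alone, so they do not check the deletion, and outside the hypothalamus the KO libraries were the ones with more *Hdc* counts. Markers of the dissected regions followed the labels: for example, 10 hypothalamic markers summed to between 190 and 326 CPM in the hypothalamus and to between 0.27 and 18.9 CPM elsewhere. The KO library 8 of the dorsal striatum stood apart, with 2940 CPM on 9 choroid plexus markers, against at most 74.9 CPM in WT and het dorsal striatum. KO library 7 of the same region had 545 CPM on 10 cortical excitatory neuron markers, against between 201 and 317 CPM in the other 6 dorsal striatum libraries. Calls in the dorsal striatum and in the trend are given below also without KO library 8 and with the choroid plexus markers as a covariate.

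Sequences are shown for the starts of the 4 called genes that lie within 1.38 Mb of each other on the start side, since these are where the transcripts begin. They are RefSeq reference sequence on GRCm38.p6 and not the sequence of the mice studied, and CG pairs, the sites of DNA methylation, are in capitals. *Exd1* and *Chp1* lie head to head, on the minus and the plus strand, with only 69 bases between their annotated starts (chr2:119547628-119547696, plus strand), so that both transcripts begin from the ends of the same short stretch.

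Between Exd1 and Chp1: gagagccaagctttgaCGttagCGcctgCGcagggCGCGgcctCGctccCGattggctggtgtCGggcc

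The 250 bases before *Pla2g4e* (chr2:120245336-120245585, minus strand) and the 210 bases before *Ivd* (chr2:118861744-118861953, plus strand) are shown for comparison.

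Upstream of Pla2g4e: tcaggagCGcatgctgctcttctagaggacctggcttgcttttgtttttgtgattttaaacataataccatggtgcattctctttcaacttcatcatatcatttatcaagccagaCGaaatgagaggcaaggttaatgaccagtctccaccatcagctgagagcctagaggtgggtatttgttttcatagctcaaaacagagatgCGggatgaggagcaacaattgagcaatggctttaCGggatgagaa

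Upstream of Ivd: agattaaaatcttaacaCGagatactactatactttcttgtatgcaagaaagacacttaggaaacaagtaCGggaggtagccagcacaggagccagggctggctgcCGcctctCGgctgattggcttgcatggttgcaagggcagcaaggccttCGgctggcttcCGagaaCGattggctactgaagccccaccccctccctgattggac

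The stretch between *Exd1* and *Chp1* holds 8 CG pairs, the longer one before *Pla2g4e* holds 4 and the one before *Ivd* holds 7. Over the 250 bases before a start, the median was 6 CG pairs in all 32851 RefSeq promoters and 16 in the 180 promoters matched to the genes around *Hdc*. The 180 belong to genes that passed the CPM filter, nearly all of them protein-coding, while the 32851 were not limited in this way. The medians thus do not compare this stretch with similar genes elsewhere. The windows of *Chp1* and *Exd1* held 26 and 21 pairs and that of *Pcna* held 22, while those of *Ivd*, *Kcnip3* and *Pla2g4e* held 8, 4 and 4.

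Across all regions, 7 of the 203 genes changed with the number of knockout alleles. The test was the slope of expression on 0, 1 or 2 knockout alleles with region as a second term (edgeR likelihood ratio test), and calls were made where the p, adjusted by Benjamini-Hochberg over all genes tested, was under 0.05. Of all 14979 genes, 40 were called, or 0.267%, against 3.45% of the genes around *Hdc*. *Pla2g4e*, *Exd1*, *Chp1* and *Bloc1s6* rose, where 0.154% of all genes were called higher, and *Ivd*, *Kcnip3* and *Pcna* fell, where 0.113% were called lower. *Pla2g4e* had the smallest p of all genes tested, *Ivd* was at rank 4, and *Kcnip3*, *Exd1*, *Chp1* and *Pcna* held ranks 6 to 9. Most of the 203 changed little, and the median size of the slope was 0.067 (log2 per allele) among the 203 genes and 0.052 among all genes. Without KO library 8 of the dorsal striatum, and also with the choroid plexus covariate, 8 of the 203 were called, these 7 and *B2m*, where 0.22% and 0.214% of all genes were called. *Hdc* and 3 further genes of chromosome 2 were also called, *Mapre1* at 27.1 Mb and *Raly* at 28.2 Mb on the end side and *Frzb* at 46.1 Mb on the start side, out of 973 genes tested on the rest of the chromosome.

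**Figure D1:**
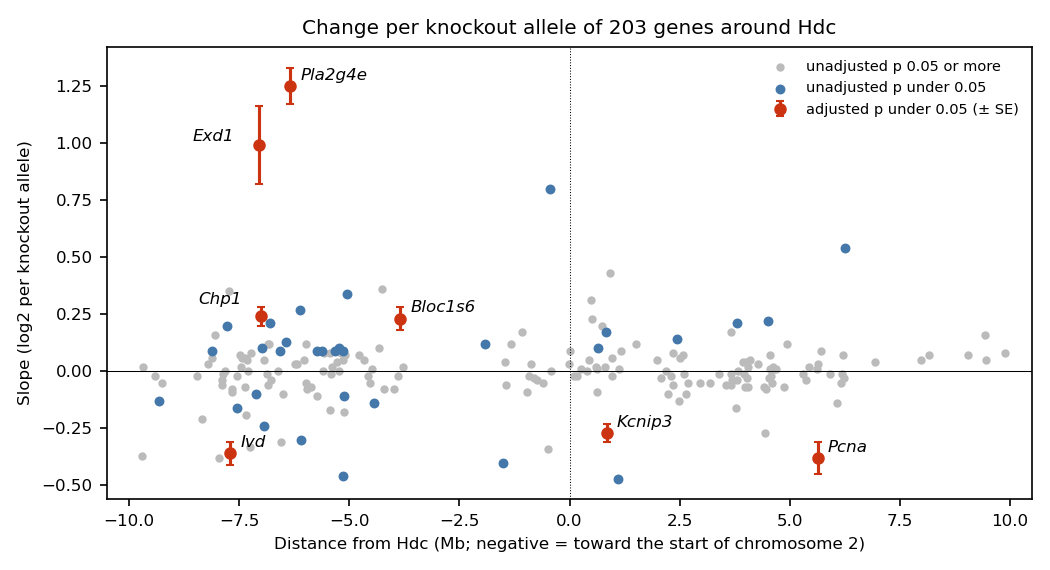
Slope of expression per knockout allele (y axis, log2) of each of the 203 genes against its distance from Hdc (x axis, Mb). Red points are the 7 genes called over all genes, with bars of 1 SE, and blue points have an unadjusted p under 0.05. Of these 7, 5 lie on the start side, 3 of them between 7 and 8 Mb from Hdc.

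The calls in the trend were spread over the stretch. Of the 29 genes within 1 Mb, *Kcnip3* was called. None of the 19 genes between 1 and 2.5 Mb was called, and *Bloc1s6* was called of the 53 between 2.5 and 5 Mb. The remaining 5 genes called in the trend lay among the 102 genes between 5 and 10 Mb. With calls in single regions counted too, 2 of the 29 within 1 Mb and 6 of these 102 were called. The steps hold unequal numbers of genes, so these counts do not show fewer calls near *Hdc*, and this was not tested. On the start side, *Ivd*, *Exd1*, *Chp1* and *Pla2g4e* lay within 1.38 Mb of each other, in a stretch with 33 of the 203 genes. Across the 203 genes, the Spearman correlation of the size of the slope with the distance from *Hdc* was 0.099, a description across genes that share the same libraries.

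The start side and the end side differed in how many genes leaned with the allele. At an unadjusted p under 0.05, 29 of 110 genes on the start side passed, or 26.4%, of which 19 were higher and 10 lower with more knockout alleles. On the end side 9 of 93 passed, or 9.68%, and among all genes tested 9.53% passed. The median of the mean CPM was 9.16 on the start side, 12.3 on the end side and 12 among all genes. In the other 10-Mb steps of chromosome 2 the share ran from 0% to 18.2%. The start-side count was 20 without the ventral striatum and 34 without the libraries of number 2. The shares among all genes in these 2 fits are not given here. With scaling by library size alone, more end-side genes passed than in the main fit. Neighbouring genes are not independent of each other, and the difference between the sides has no test here. In KO against WT libraries of single regions, the share of start-side genes with an unadjusted p under 0.05 was 13.6% in the dorsal striatum, 21.8% in the ventral striatum, 11.8% in the hypothalamus and 10% in the motor cortex. Among all genes the shares were 7.94%, 5.4%, 6.01% and 4.33% in the same order. The end side had 6.45%, 10.8%, 8.6% and 2.15%.

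**Figure D2:**
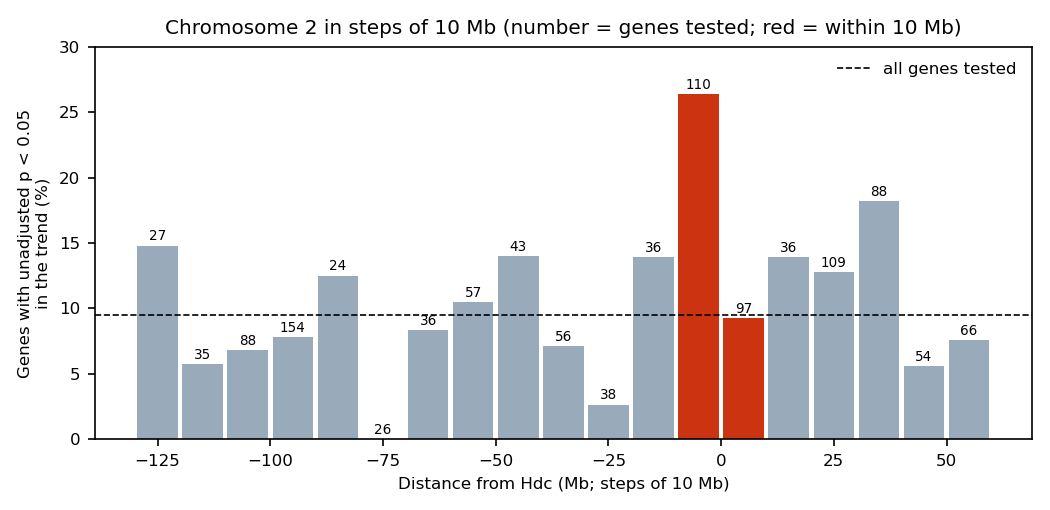
Share of genes with an unadjusted p under 0.05 in the trend over knockout alleles (y axis, %) in 10-Mb steps of chromosome 2 by distance from Hdc (x axis, Mb). Numbers above the bars count the genes tested, the dashed line is the share among all genes tested (9.53%), and red bars are the 10 Mb on each side, the end side here including the 4 genes left out by name. The start-side bar stands at 26.4%, and no other step of the chromosome passes 18.2%.

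*Pla2g4e* (ENSMUSG00000050211, chr2:120166412-120245335, minus strand) had the steepest called slope of the 203. It encodes the epsilon form of cytosolic phospholipase A2, a calcium-dependent acyltransferase that makes precursors of endocannabinoids, and it lies 6.35 Mb from *Hdc* on the start side. In the dorsal striatum it was at 2.7 and 2.95 CPM in the WT libraries, at 11.6, 16.4 and 16.3 CPM in het and at 30.8 and 24.4 CPM in KO. Ventral striatum had 3.46, 3.5 and 3.85 CPM in WT, 15.9, 15.5 and 14.8 CPM in het and 29.3 and 33.1 CPM in KO. The 3 genotypes did not overlap in either part of the striatum, and the KO means were 9.79 and 8.66 times the WT means.

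In the hypothalamus *Pla2g4e* was at 9.49, 4.82 and 5.38 CPM in WT, at 18.9, 20.5 and 20.3 CPM in het and at 31.4 and 39.1 CPM in KO. In the motor cortex the single WT library had 16.3 CPM, the het libraries 27.8 and 36.8 CPM and the KO libraries 50.4 and 57.8 CPM. Here too each genotype stood apart from the next, with KO means 5.37 and 3.31 times the WT values. The WT level was highest in the motor cortex, where the fold was smallest, and the distance from WT to KO in CPM was 24.8 in the dorsal striatum, 27.6 in the ventral striatum, 28.7 in the hypothalamus and 37.8 in the motor cortex.

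The slope of *Pla2g4e* was 1.25 ± 0.08 per allele on the log2 scale (SE, adjusted p = 1.97e-49). It was called in KO against WT in each of the 4 regions and in het against WT in the 2 parts of the striatum and the hypothalamus. On the CPM scale, het means were at 48.3%, 42.7%, 46.4% and 42.2% of the way from WT to KO in the dorsal striatum, ventral striatum, hypothalamus and motor cortex. On the log2 scale this is above the midpoint, by 0.42 ± 0.10 (SE, adjusted p = 0.0333), and *Pla2g4e* was the only one of the 203 genes called for a departure from the midpoint, where 0.18% of all genes were. That call was lost with edgeR's quasi-likelihood test, with scaling by library size alone and without the libraries of number 3, 5, 6 or 7, with values between 0.37 and 0.45. None of the genes next to *Pla2g4e* was called. *Ehd4*, an endosomal trafficking ATPase, had a slope of 0.13 ± 0.05 (adjusted p = 0.337) and *Vps39*, a subunit of the lysosomal tethering complex HOPS, 0.03 ± 0.03 (adjusted p = 0.849). The neighbour closest to a call was *Ganc*, a neutral alpha-glucosidase, with a slope of 0.27 ± 0.07 (adjusted p = 0.0729). These neighbours were chosen for their position after the values of *Pla2g4e* were seen. Of the 50-base words of the *Pla2g4e* exons, 1.9% also occur in another gene.

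**Figure D3:**
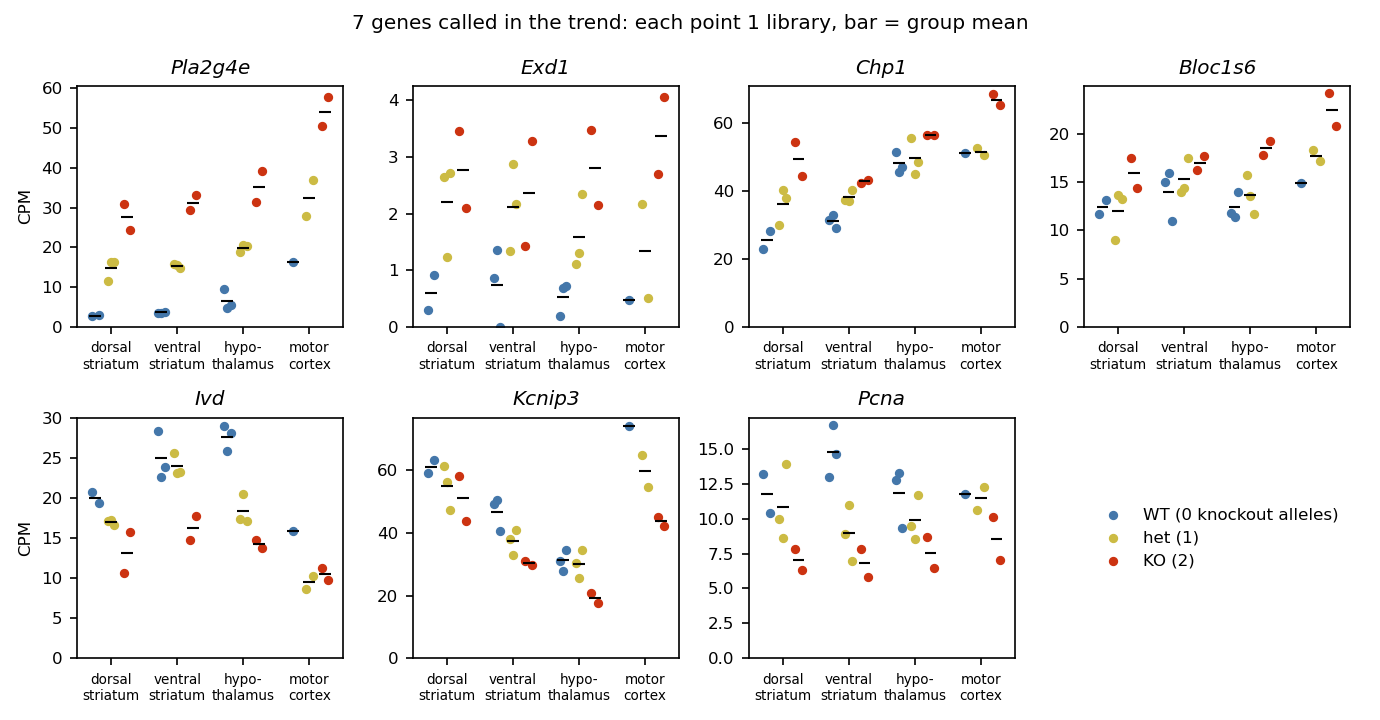
CPM (y axis, from 0) of the 7 genes called in the trend, by region (x axis) and genotype (blue WT, yellow het, red KO). Each point is 1 library and each bar a group mean. In every panel and region the KO libraries lie on 1 side of the WT libraries, above them for Pla2g4e, Exd1, Chp1 and Bloc1s6 and below them for Ivd, Kcnip3 and Pcna.

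*Chp1* and *Exd1*, the head-to-head pair whose shared start is printed above, both rose. *Chp1* (ENSMUSG00000014077, chr2:119547697-119587027) encodes a calcineurin-like calcium-binding protein that is a cofactor of sodium/proton exchangers. In the dorsal striatum it was at 22.8 and 28.3 CPM in WT, at 30, 40.2 and 37.9 CPM in het and at 54.3 and 44.3 CPM in KO. In the ventral striatum WT libraries had 31.4, 32.9 and 29 CPM, het libraries 37.4, 36.9 and 40.2 CPM and KO libraries 42.3 and 43.3 CPM. The genotypes were apart in both parts of the striatum.

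In the hypothalamus *Chp1* was at 51.5, 45.6 and 47.1 CPM in WT, at 55.4, 44.9 and 48.3 CPM in het and at 56.3 CPM in both KO libraries. In the motor cortex it was at 51 CPM in WT, at 52.6 and 50.4 CPM in het and at 68.5 and 65.1 CPM in KO. In these 2 regions the het libraries overlapped with WT and the KO libraries lay above both. The slope was 0.24 ± 0.04 per allele (SE, adjusted p = 7.46e-06), and KO against WT was called in the dorsal striatum (log2 fold change 0.94 ± 0.17, adjusted p = 3.04e-05). The latter call was lost without the WT dorsal striatum library 1 (log2 fold change 0.80).

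*Exd1* (ENSMUSG00000048647, chr2:119516505-119547627), which encodes a protein of the piRNA pathway known from the germline, was low throughout. It had 1 and 4 counts in the WT dorsal striatum, 3, 5 and 0 in the WT ventral striatum, 1, 4 and 4 in the WT hypothalamus and 2 in the WT motor cortex. KO libraries had 15 and 8 counts in the dorsal striatum, 6 and 13 in the ventral striatum, 16 and 10 in the hypothalamus and 12 and 15 in the motor cortex. Het libraries lay between 2 and 13 counts over all regions. All 8 KO libraries were above all 9 WT libraries in counts, and the slope was 0.99 ± 0.17 per allele (SE, adjusted p = 3.46e-06), although no single region passed on its own (adjusted p between 0.0563 and 0.772 in KO against WT). The 2 genes share no exon bases in the annotation.

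*Bloc1s6* (ENSMUSG00000005804, chr2:122738503-122749475), which encodes pallidin, a subunit of the BLOC-1 complex of endosome and lysosome-related organelle traffic, rose by 0.23 ± 0.05 per allele (SE, adjusted p = 0.00616). It went from 11.7 and 13.1 CPM in WT to 17.5 and 14.4 CPM in KO dorsal striatum. In the hypothalamus it was at 11.8, 11.4 and 14 CPM in WT and at 17.8 and 19.3 CPM in KO, and in the motor cortex at 14.9 CPM in WT and at 24.2 and 20.8 CPM in KO. The difference was smallest in the ventral striatum, with 15, 15.9 and 11 CPM in WT and 16.3 and 17.7 CPM in KO. KO libraries were above WT libraries in each region, the het libraries overlapped with at least 1 of the 2 other groups except in the motor cortex, and no single region was called. The trend was lost without the libraries of number 7 or 8 and without the hypothalamus or the motor cortex, with slopes between 0.20 and 0.26 over all alternatives. It was also lost with the library number as a random replicate block in limma voom (slope 0.23, adjusted p = 0.0511).

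*Ivd* (ENSMUSG00000027332, chr2:118861954-118882909) fell. It encodes isovaleryl-CoA dehydrogenase, a mitochondrial enzyme of leucine breakdown. In the hypothalamus it was at 29, 25.8 and 28.1 CPM in WT, at 17.4, 20.5 and 17.1 CPM in het and at 14.7 and 13.8 CPM in KO, with no overlap between the genotypes. The KO mean was 0.515 times the WT mean there (log2 fold change -0.95 ± 0.16, adjusted p = 5.05e-06), and het against WT was called as well (log2 fold change -0.59 ± 0.13, adjusted p = 0.0102). The het call was lost without het library 4 or 6 and without WT library 1 or 3, with log2 fold changes between -0.57 and -0.54, and with the quasi-likelihood test and DESeq2.

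In the dorsal striatum *Ivd* went from 20.7 and 19.3 CPM in WT over 17.1, 17.2 and 16.6 CPM in het to 10.6 and 15.7 CPM in KO. In the ventral striatum WT libraries had 28.3, 22.6 and 23.9 CPM, het libraries 25.6, 23.1 and 23.2 CPM and KO libraries 14.7 and 17.7 CPM. The motor cortex had 15.9 CPM in WT, 8.69 and 10.3 CPM in het and 11.2 and 9.73 CPM in KO. The position of the het libraries thus varied: apart from both other genotypes in the dorsal striatum, overlapping with WT in the ventral striatum and with KO in the motor cortex. Over all regions *Ivd* fell by 0.36 ± 0.05 per allele on the log2 scale (SE, adjusted p = 6.33e-09).

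*Kcnip3* (ENSMUSG00000079056, chr2:127456498-127522094), 0.84 Mb from *Hdc* on the end side, encodes KChIP3, also known as DREAM or calsenilin, a calcium-binding partner of Kv4 potassium channels that can also act as a transcriptional repressor. It fell by 0.27 ± 0.04 per allele on the log2 scale (SE, adjusted p = 2.81e-06). In the motor cortex it was at 74 CPM in WT, at 64.9 and 54.5 CPM in het and at 45.2 and 42.2 CPM in KO. In the ventral striatum WT libraries had 49.3, 50.6 and 40.6 CPM, het libraries 38.1, 33 and 40.9 CPM and KO libraries 31.2 and 29.9 CPM. KO libraries were below WT libraries in both regions, and in the motor cortex the het libraries stood between them without overlap.

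In the hypothalamus *Kcnip3* was at 31.2, 27.9 and 34.6 CPM in WT, at 30.4, 25.7 and 34.5 CPM in het and at 20.8 and 17.6 CPM in KO. Het libraries overlapped with WT here, and only KO stood apart (log2 fold change -0.70 ± 0.18, adjusted p = 0.0473). In the dorsal striatum the KO libraries, at 58.2 and 43.8 CPM, were just below the WT libraries at 59.1 and 63.2 CPM. The call in the hypothalamus was lost without KO library 8, WT library 1 or WT library 3, where the log2 fold change was -0.58, -0.72 and -0.63, as well as with the quasi-likelihood test and DESeq2.

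*Pcna* (ENSMUSG00000027342, chr2:132249162-132253314), the sliding clamp of DNA replication and repair, fell by 0.38 ± 0.07 per allele on the log2 scale (SE, adjusted p = 2.70e-05). In the ventral striatum it was at 13, 16.7 and 14.6 CPM in WT, at 8.91, 11 and 6.94 CPM in het and at 7.8 and 5.82 CPM in KO (log2 fold change of KO over WT -1.11 ± 0.27, adjusted p = 0.0268). That call was lost without any 1 of 4 libraries, KO library 8 or WT libraries 1, 2 or 3. The call was also lost with the quasi-likelihood test and DESeq2, and log2 fold changes over all alternatives were between -1.34 and -0.92. KO libraries lay below WT libraries in each of the 4 regions. The trend was lost without the libraries of number 8, with slopes between -0.45 and -0.30 over all alternatives.

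The value of *Pcna* is uncertain, because reads were counted only where they mapped to 1 place and a near-identical copy exists. *Pcna-ps2*, a processed pseudogene on chromosome 19 (chr19:9283380-9284160) named here because the *Pcna* result turns on it, matches *Pcna* over all of its 781 bases with 6 differences, and 19.1% of the 50-base words of *Pcna* exons also occur in it. The pseudogene had between 0 and 2 counts in the 9 WT libraries, between 3 and 9 in the 11 het libraries and between 8 and 15 in the 8 KO libraries, a slope of 1.61 ± 0.19 per allele (SE, adjusted p = 2.27e-16). The copy thus took 0.6% of the reads of both in WT, 12.85% in het and 27.14% in KO libraries. With the counts of both added, the slope was -0.16 per allele on the log2 scale, against -0.38 for *Pcna* alone by the same measure. Over the 560 ways to assign the genotypes to the 8 library numbers, the sum gave an exact permutation p of 0.0518, 2-sided. How much of the fall of *Pcna* is a shift of reads to the copy was not tested beyond this sum.

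**Figure D4:**
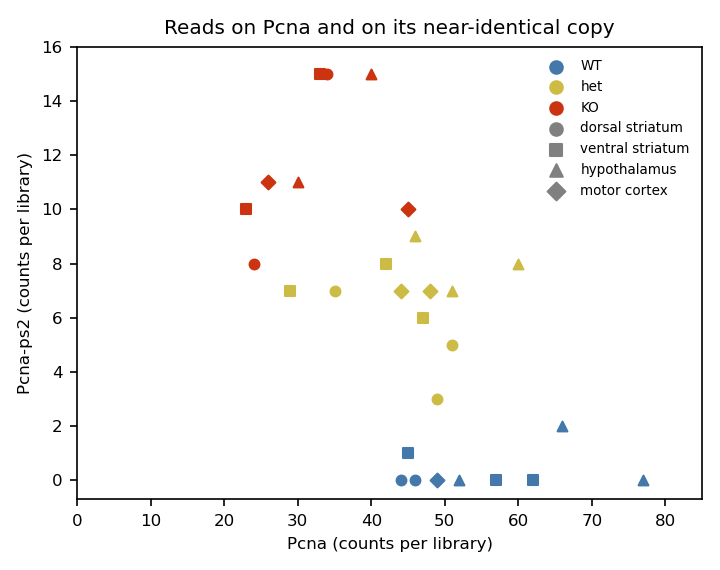
Counts on the pseudogene Pcna-ps2 (y axis) against counts on Pcna (x axis) in each of the 28 libraries, coloured by genotype (blue WT, yellow het, red KO) and shaped by region. The WT libraries lie between 0 and 2 counts on the copy, the het libraries between 3 and 9 and the KO libraries between 8 and 15.

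Permutation of genotypes over the 8 library numbers gave p-values of single genes that do not rest on the edgeR model. The called genes were picked for a small p in these same libraries, so their low values here are not independent support. How many of all genes tested reach such values is not given here. It was run on the 53 named genes, and p-values here are 2-sided and not adjusted. *Pla2g4e*, *Ivd*, *Kcnip3*, *Chp1* and *Pcna* reached 0.00179, the smallest p that the 560 assignments allow, and *Exd1* and *Bloc1s6* reached 0.00536. Among genes that were not called, *Rpap1*, an assembly factor of RNA polymerase II, also reached 0.00179 with a slope of 0.22 per allele on log2 CPM, but in the model its slope of 0.21 ± 0.07 had an adjusted p of 0.237.

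KO and WT libraries did not overlap, in the same direction in all 4 regions, for 8 of the 203 genes, where 0.361% of all genes tested met this. They were the 7 called genes and *Pdia3*, a disulfide isomerase of the endoplasmic reticulum on the start side. *Pdia3* was at 106 and 103 CPM in WT and at 114 and 119 CPM in KO dorsal striatum, and at 148, 142 and 152 CPM in WT and at 168 and 161 CPM in KO hypothalamus. Its slope was small and not called, 0.09 ± 0.03 per allele (SE, adjusted p = 0.131). On the rest of chromosome 2, 4 of 973 genes met the criterion.

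In single regions, the calls among the 203 genes were few. In the dorsal striatum, KO against WT called *Pla2g4e*, *Chp1* and *Adra2b*, 1.48% of the 203 against 0.387% of all genes tested. In the same libraries 10 oligodendrocyte and myelin markers summed to between 1890 and 2110 CPM in WT, between 2700 and 2840 CPM in het and between 2870 and 3690 CPM in KO, without overlap, and their part in these calls was not tested. *Pla2g4e* and *Chp1* remained called without KO library 8, at log2 fold changes of 3.43 and 1.07, and with the choroid plexus covariate, at 3.44 and 1.04. *Pla2g4e* and *Pcna* were called in the ventral striatum, 0.985% against 0.0801% of all genes. The hypothalamus gave *Pla2g4e*, *Ivd*, *Kcnip3* and *Lamp5*, 1.97% against 0.167%, and the motor cortex gave *Pla2g4e*, 0.493% against 0.0334%. Het against WT called *Pla2g4e* in the dorsal striatum (0.0868% of all genes called), in the ventral striatum (0.0534%) and, with *Ivd*, in the hypothalamus (0.0935%). In the motor cortex het against WT called none of the 203 and 0.0134% of all genes with edgeR's likelihood ratio test. There 9 of the 203 had an unadjusted p under 0.05, or 4.43% against 3.71% of all genes, and none was called with the quasi-likelihood test or DESeq2. These comparisons share the WT libraries of a region. In KO against WT, leaving out 1 library gave between 1 and 4 calls in the dorsal striatum, with between 11 and 151 of all genes, and between 2 and 6 in the hypothalamus, with between 4 and 127 of all genes. In the ventral striatum 5 genes were called without KO library 7 (*Disp2*, *Ebf4* and *Sema6d* besides both above, and 159 of all genes) and 1 without KO library 8 or any WT library.

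*Adra2b* and *Lamp5* were called in a single region and not in the trend. *Adra2b*, the alpha-2B adrenergic receptor, 0.74 Mb from *Hdc*, was at 2.7 and 2.04 CPM in WT, at 5.1, 4.9 and 6.81 CPM in het and at 7.37 and 8.14 CPM in KO dorsal striatum (log2 fold change of KO over WT 1.72 ± 0.47, adjusted p = 0.0414). The genotypes did not overlap there. The call was lost with the choroid plexus covariate, with the quasi-likelihood test, with DESeq2 and without any 1 of the 4 WT and KO libraries, with log2 fold changes between 1.51 and 2.00. In the ventral striatum the genotypes overlapped, in the hypothalamus the KO libraries, at 2.6 and 2.36 CPM, were below the WT libraries at 2.9, 5.51 and 4.84 CPM, and in the motor cortex 4 of 5 libraries had 0 counts.

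*Lamp5*, a brain member of the lysosome-associated membrane protein family, lies 9.43 Mb from *Hdc* on the end side. In the hypothalamus it was at 16.1, 11.9 and 15.4 CPM in WT, at 13.9, 14 and 10.7 CPM in het and at 16.7 and 53.5 CPM in the KO libraries (log2 fold change 1.28 ± 0.29, adjusted p = 0.00668). KO library 8 alone was high. In that library the sum of 10 markers of cortical excitatory neurons, *Lamp5* among them, was 621 CPM, against between 229 and 345 CPM in the other 7 hypothalamus libraries, and without it the log2 fold change was 0.21 and not called. The part of these cells in the result was not tested. The call was also lost without WT library 1 or 2, at 1.34 and 1.12, and with the quasi-likelihood test and DESeq2. *Lamp5* itself was between 249 and 398 CPM in the motor cortex.

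None of the 203 genes was called for a slope that differed between regions (edgeR likelihood ratio test on 3 interaction terms), where 0.12% of all genes were called and 19 of the 203 had an unadjusted p under 0.05, or 9.36% against 5.69% of all genes. With the quasi-likelihood test none was called either. Without the libraries of number 7, *Itpka*, *Lamp5*, *Myef2* and *Plcb1* were called, without number 3 *Itpka* and without number 6 *Adra2b*. Over all genes, 186, 41 and 27 were called in these fits, against 18 with all libraries. The smallest p belonged to *Itpka*, a kinase of inositol trisphosphate in dendritic spines (adjusted p = 0.138), followed by *Adra2b* (0.149), *Lamp5* (0.226), *Rassf2* (0.287) and *Chp1* (0.446). *Itpka* was lower in KO than in WT dorsal striatum, at 54.1 and 39.1 against 67.5 and 74.8 CPM, while in the hypothalamus KO library 8, the one with more cortical markers, had 10.3 CPM and the other 7 libraries were between 0.585 and 3.23 CPM. For *Pla2g4e* the adjusted p of the difference was 0.702.

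None of the immediate neighbours of *Hdc* was called in a comparison of genotypes. On the start side the 5 nearest genes were *Galk2*, a galactokinase family member, *Fgf7*, a growth factor, *Fam227b*, *Dtwd1* and *Slc27a2*, a fatty acid transporter and very long chain acyl-CoA synthetase. Their slopes lay between -0.34 and 0.80 per allele, with adjusted p between 0.299 and 0.999 in the trend test. The values at both ends belong to genes with a mean under 1 CPM, *Fgf7* and *Fam227b*, whose change is thus uncertain. *Fam227b*, at 0.80, had an unadjusted p of 0.00864 in the trend test and an exact permutation p of 0.0196. Exons of *Fam227b* overlap those of *Galk2* on the other strand over 11.2% of their length, so reads of the pair may not be separable. *Slc27a2*, at a mean of 4.67 CPM, had a slope of 0.03 ± 0.08. On the end side *Gabpb1*, a subunit of the GA-binding transcription factor, *Usp8*, an endosomal deubiquitinase, *Trpm7*, an ion channel with a kinase domain, *Sppl2a*, an intramembrane protease, and *Ap4e1*, a subunit of the AP-4 coat adaptor, had slopes between -0.02 and 0.09, and none passed.

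The regions differed in the level of most of these genes. Of the 203, 140 were called for a difference of the level between regions with the number of knockout alleles in the fit, or 69.0%, against 71.9% of all genes tested. Among these 140, 30 were highest in the dorsal striatum, 12 in the ventral striatum, 49 in the hypothalamus and 49 in the motor cortex. The striatum stood out for *Ankrd63*, an ankyrin repeat protein, with a mean of 142 CPM in the dorsal and 98.2 CPM in the ventral striatum, 9.67 CPM in the motor cortex and 0.521 CPM in the hypothalamus. *Lzts3*, a postsynaptic scaffold protein, had means of 235 CPM (dorsal) and 129 CPM (ventral) in striatum, 99.9 CPM in motor cortex and 33.8 CPM in hypothalamus. *Itpka* was about as high in the motor cortex, at 52.3 CPM, as in the dorsal striatum, at 56.8 CPM, and lower in the ventral striatum, at 33.1 CPM. *Slc4a11*, a membrane transporter of the bicarbonate transporter family, was highest in the ventral striatum, at 9.95 CPM against 4.96 CPM in the dorsal striatum.

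In the hypothalamus the largest excesses were those of *Lrrn4*, a leucine-rich repeat protein, *Plcb4*, a phospholipase C that acts downstream of G proteins, and *Disp2*, a homologue of the hedgehog release factor Dispatched. *Plcb4* was at 212 CPM in the hypothalamus against 31.2 CPM in the dorsal striatum, and *Disp2* at 665 against 120 CPM. The motor cortex led for *Adra1d*, the alpha-1D adrenergic receptor, at 12.8 CPM against at most 1.07 CPM elsewhere, for *Tgm3*, a transglutaminase, at 3.33 CPM against at most 0.441 CPM, and for *Lamp5*, at 299 CPM. None of these genes except *Lamp5* was called in a comparison of genotypes.

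**Figure D5:**
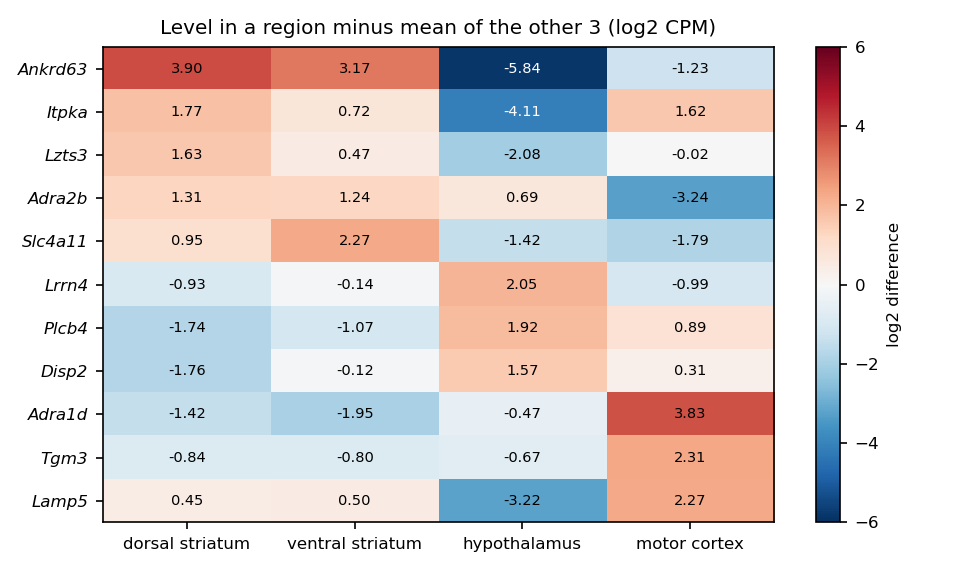
Mean log2 CPM in a region minus the mean of the other 3 regions for the genes with the largest regional excess (rows) in the 4 regions (columns), over libraries of all genotypes. Red marks a level above and blue a level below the other regions. Ankrd63 is 3.90 above in the dorsal and 5.84 below in the hypothalamus, and Adra1d is 3.83 above in the motor cortex.

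By function, 157 of the 203 genes could be placed on at least 1 of 8 role lists. In the trend, 7 of the 203 were called, or 3.45%, against 0.267% of all genes. The lists are short, so the counts of calls below do not set any function apart, and this was not tested. Of 26 genes for synapse, secretion and neuronal signalling, 1 fell with the alleles (*Kcnip3*) and none rose, and the median slope was 0.012. Per kb of exon, the highest of them were *Prnp*, the prion protein, at 183 CPM per kb, *Rasgrp1*, a Ras activator of striatal neurons, at 97.2 and *Chgb*, a granin of secretory granules, at 90.3 CPM per kb. None of these 3 was called in any comparison of genotypes.

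Of 20 genes for the cell cycle, DNA replication and repair, 1 fell (*Pcna*, with the uncertainty above) and the median slope was 0.034. The highest per length were *Trp53bp1*, a DNA damage response protein, at 7.95 CPM per kb, *Ccndbp1* at 7.62 and *Anapc1*, a subunit of the anaphase-promoting complex, at 6.09 CPM per kb. Of 30 genes for mitochondria and metabolism, 1 fell (*Ivd*). The list was led by *Pdia3* at 40.8, *Idh3b*, a subunit of a citric acid cycle enzyme, at 38.4 and *Cds2*, an enzyme of phospholipid synthesis, at 36.6 CPM per kb. *Pdia3* acts in the endoplasmic reticulum, so this list is not limited to mitochondria. Of 22 genes for endosome, lysosome and membrane traffic, 2 rose (*Bloc1s6* and *Chp1*) and none fell, with a median slope of 0.008. *Tmem127*, *Ddrgk1* and *Usp8* were the highest of these, at 22.5, 20.4 and 17.4 CPM per kb.

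None was called in the trend of 29 genes for RNA processing, transcription and translation, 11 immune and phagocytic genes, 13 genes for extracellular matrix and developmental signals or 12 cytoskeletal genes. Their median slopes were -0.024, -0.027, -0.093 and 0.014, against 0.004 among all genes. Leading genes were *Srp14*, of the signal recognition particle, at 27.5 CPM per kb, *Sirpa*, the receptor of the signal CD47, at 80.4, *B2m*, the light chain of class I MHC, at 77, *Atrn*, a multidomain cell surface protein, at 18 and *Map1a*, a microtubule-associated protein of neurons, at 124 CPM per kb. *B2m* had a slope of -0.14 ± 0.04 (SE, adjusted p = 0.159) and was called without KO library 8 of the dorsal striatum (slope -0.17, adjusted p = 0.0316), and *Map1a* had 0.04 ± 0.03 (adjusted p = 0.75). *Pla2g4e* and *Exd1*, the genes with the steepest called slopes, are on none of the 8 lists.

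At the ends of the stretch, the outermost of the 203 were *Tmco5* (9.7 Mb, slope -0.37 ± 0.29 per allele) and *Ankef1* (9.88 Mb, 0.08 ± 0.08). Just outside lay *G630016G05Rik* at 10.51 Mb, with -0.41 ± 0.22, and *Snap25*, a protein of synaptic vesicle fusion, at 10.09 Mb, with 0.05 ± 0.04 (SE). None of the 4 was called. The 114 genes of the stretch below the filter had a median of 6 counts over all 28 libraries together and at most 51, and 28 of them had 0, too few to compare genotypes.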

How the data were processed

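RNA of the 28 libraries was amplified with the Ovation V2 kit and sequenced as single-end 50-base reads. The authors trimmed reads with Trimmomatic 0.32, removed rRNA reads with Bowtie2 2.2.3, aligned to GRCm38 with STAR 2.3.1z8 and deposited raw counts per gene of uniquely mapped reads from HTSeq 0.6.1p1 in union mode (versions per the submitters' processing notes). The strand setting is not given in the sources used here. Tally lines that name no gene were left out. They held between 45.78% and 55.22% of tallied reads. No 2 libraries of a group agreed within sampling noise.

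Genes above 1 CPM in at least 2 libraries were kept, and counts were scaled by TMM and tested with edgeR 4.0.16 (R 4.3.3) by glmFit and glmLRT, as the study's methods name them. Within regions, 2 of 12 group means were contrasted. Alternatives were the quasi-likelihood test, DESeq2 1.42.0, scaling by library size alone, no filter, fits within a region, a choroid plexus covariate, left-out libraries, numbers and regions, and replicate blocks. 2 alternatives, the trend without the KO dorsal striatum library 8 and without the WT motor cortex library, were chosen after seeing the data. On simulated data with 200 changed of 14979 genes, the trend test recovered 79 of 100 slopes of 0.5 and 93 of 100 slopes of 1, with 19 unchanged genes called. KO and WT differ by 2 knockout alleles, and in the dorsal striatum the estimated log2 fold change was at the median 2.029 times the simulated slope. KO against WT there recovered 55 and 72 of 100 genes with these slopes, with 18 unchanged genes called. In both tests, the false share of the calls exceeded the threshold on the adjusted p. The quasi-likelihood test called 9 and 6 unchanged genes. Slopes under 0.5 were not simulated, and all genes called in the trend around *Hdc* except *Pla2g4e* and *Exd1* had such slopes. Simulated libraries were drawn independently, so libraries that share an animal were not simulated either.

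Positions came from GENCODE M21, in which 131 genes tested had no entry. Named genes were those called in any comparison of genotypes or the trend, the 3 smallest p in KO against WT per region, the 5 nearest *Hdc* on each side, the window's edges, the 5 smallest p for a trend differing between regions, the 3 largest excesses per region and the 3 highest per kb of each role list. The genes and lists were chosen with earlier results of these data known. Pseudogene and neighbour values were chosen after their values were seen.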

Additional observations from a re-analysis of the deposited data

How the results depend on the processing

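The trend had 5 to 9 called genes when a library or a number was left out. Single genes named in the text gave 1167 values that kept their direction and call, 46 that lost and 8 that gained the call and 0 that changed direction. Most of the 1167 belong to genes that were not called in the trend and stayed so. All 46 losses fell on results that were called in the main fit. The total thus does not measure how stable the calls are. In KO against WT the quasi-likelihood test called 1 in the ventral striatum and 2 in the hypothalamus, as did DESeq2, and both called 1 in het against WT in the hypothalamus, as did the fit with no filter. Within the region alone, KO against WT called 2 in the hypothalamus and 4 in the motor cortex (*Kcnip3*, *Pla2g4e*, *Rassf2* and *Rpap1*, with 60 of all genes against 5), and het against WT called 1 in the motor cortex. Of all genes, KO against WT within the hypothalamus alone called 10. Library size alone called 16 in the KO dorsal striatum. There it called 499 of all genes against 58 and moved their median log2 fold change from -0.003 to 0.276. It called 2 in the het dorsal striatum, with 56 of all genes against 13. For a trend differing between regions it called 2, with 88 of all genes against 18. On the end side, 18 had an unadjusted p under 0.05 in the trend with this scaling, against 9 of 93 in the main fit. The trend called 70 of all genes with this scaling, against 40. Shares of the start side and of all genes at the unadjusted threshold are not given for it. The midpoint test called 0 with library size alone and with the quasi-likelihood test, with 20 and 13 of all genes. Over all genes, KO against WT in the dorsal striatum called 12 with the quasi-likelihood test, 23 with DESeq2 and 15 with the choroid plexus covariate. The trend called 16 of all genes with the quasi-likelihood test. KO against WT called 4 of all genes in the ventral striatum and 4 in the hypothalamus with the quasi-likelihood test. DESeq2 called 6 and 5 there. With 1 library left out, KO against WT called 1 to 4 in the dorsal striatum, 1 to 5 in the ventral striatum, 2 to 6 in the hypothalamus and 1 in the motor cortex. Het against WT called 1 in the dorsal striatum when a het library was left out, with 4 to 24 of all genes. It called 1 to 2 in the ventral striatum, with 3 to 8 of all genes, and 1 to 2 in the hypothalamus, with 2 to 13. Without a number, the midpoint test called 0 to 2, the trend difference 0 to 4 and the level 126 to 137. Among all genes tested, these fits called 7 to 40, 5 to 186 and 10112 to 10540 in the same order. The start side had 22 to 34 and the end side 8 to 12 at an unadjusted p under 0.05.

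Correlations did not settle whether a replicate number marks an animal. Libraries with the same number had a mean correlation of their deviations of 0.00697, and 0 of 34 pairs were over 0.1. Pairs of other numbers had a mean of -0.00424. Groups held few libraries, so low correlations cannot show that a number is not an animal. The caveat that p-values may in part measure technical spread thus stands. With the number as a replicate block, 0 of the genes around *Hdc* were called for a trend differing between regions and 138 for the level. Among all genes tested, the same tests called 22 and 10632 in the same order. With a random block in limma voom the trend called 6, without *Bloc1s6*, and 15 of all genes. No paired analysis was possible for the genotype contrasts because the genotypes share no number. The few libraries per group and low counts, as for *Exd1*, limit what single regions can show.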
